A study of Mus musculus with 39 samples.

Results

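The report covers 45 genes that lie around Ins2 on distal mouse chromosome 7, out of 46517 genes in the count tables. The members were taken from a fixed list of symbols and matched by Ensembl identifier. No measured value enters that rule, but the list was drawn up with earlier results of these data known. On GRCm38 they run from Bet1l (chr7:140853394-140857577) to Fadd (chr7:144577318-144582463). Of these, 29 lie proximal of Ins2 (chr7:142678656-142743381) and 16 lie distal of it. The libraries are RNA sequencing of liver and of triceps surae, a hindlimb muscle group, from female mice aged 25 weeks and fasted for 4 h. All mice carried Ins1-/-, so that Ins2 was their remaining insulin gene, and the strain is given as a mixture of C57BL/6 and 129. Liver gave 5 Ins2+/- and 5 Ins2+/+ libraries on diet A, and 5 Ins2+/- and 4 Ins2+/+ libraries on diet B. Muscles came from 5 libraries in each of the same 4 groups. Diet B was the richer diet, with 5.56 kcal/g and 58% of calories from fat, and diet A had 4.68 kcal/g and 25% of calories from fat. The Ins2+/+ mice were littermate controls that carried the Ins1 deletion too. The sources used here do not say from which parent or strain the targeted chromosome came.

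Genes close to a targeted allele are inherited with it, so mice that differ at Ins2 can also differ in the strain of origin of the neighbouring chromosome. The region is known for genomic imprinting, in which only the maternal or the paternal copy of a gene is used. Near Ins2, the growth factor gene Igf2 and the non-coding RNA H19 share enhancers and are expressed from opposite parental copies. Further distal, the domain around Kcnq1 holds the cell cycle inhibitor Cdkn1c, the transporter gene Slc22a18 and Phlda2, which are silenced on the paternal chromosome by the antisense transcript Kcnq1ot1. Igf2 and H19 are fetal genes that are strongly reduced in mouse liver after birth.

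For 2 members the counts depend on a near-identical sequence elsewhere in the genome, so their sequences are shown first. Mrpl23 encodes a protein of the mitochondrial ribosome, and Mrpl23-ps1 is a processed pseudogene on the minus strand of chromosome 2 (chr2:74591330-74591909). The alignment of their transcripts covers 540 bases with 0 mismatches and includes the whole coding part of 438 bases. The first 150 bases of that coding part, from GENCODE transcripts of GRCm38, are the same in both.
Mrpl23: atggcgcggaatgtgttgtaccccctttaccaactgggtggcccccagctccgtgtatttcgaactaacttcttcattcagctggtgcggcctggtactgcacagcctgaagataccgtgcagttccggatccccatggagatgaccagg
Mrpl23-ps1: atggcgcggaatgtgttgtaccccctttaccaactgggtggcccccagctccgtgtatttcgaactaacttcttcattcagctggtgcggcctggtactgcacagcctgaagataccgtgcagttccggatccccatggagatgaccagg

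Polr2l encodes a small subunit of the RNA polymerases, and its 201 coding bases recur in a transcript of Usp50 on chromosome 2 with 1 mismatch. The capital letter marks the base at which they differ.
Polr2l: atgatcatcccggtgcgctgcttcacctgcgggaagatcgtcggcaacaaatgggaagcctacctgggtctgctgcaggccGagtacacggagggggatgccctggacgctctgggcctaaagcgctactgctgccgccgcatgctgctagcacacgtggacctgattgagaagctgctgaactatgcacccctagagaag
Usp50: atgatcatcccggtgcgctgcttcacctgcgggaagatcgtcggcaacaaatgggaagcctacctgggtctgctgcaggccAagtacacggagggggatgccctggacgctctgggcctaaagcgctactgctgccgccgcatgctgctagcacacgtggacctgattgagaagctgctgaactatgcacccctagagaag

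Several members start close to each other on opposite strands. Hras and Lrrc56 have annotated starts 151 bases apart, Polr2l and Tspan4 107 bases apart, and Deaf1 and Tmem80 48 bases apart, while Bet1l and Ric8a overlap at their starts. The bases between the starts of the first 3 pairs, on the plus strand of GRCm38.p6 from RefSeq, are shown because these members are set side by side below. Capitals mark GC boxes (GGGCGG on either strand) and a CCAAT box (CCAAT on either strand).
Hras-Lrrc56: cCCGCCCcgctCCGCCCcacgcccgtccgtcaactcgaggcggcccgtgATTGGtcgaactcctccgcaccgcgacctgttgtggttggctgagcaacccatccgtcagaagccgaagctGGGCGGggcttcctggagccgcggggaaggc
Polr2l-Tspan4: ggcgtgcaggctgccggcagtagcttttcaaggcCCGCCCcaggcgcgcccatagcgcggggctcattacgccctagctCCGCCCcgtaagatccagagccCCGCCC
Deaf1-Tmem80: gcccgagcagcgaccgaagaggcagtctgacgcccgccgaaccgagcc

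The stretch between Hras and Lrrc56 (chr7:141194006-141194156) holds 3 GC boxes and 1 CCAAT box, and that between Polr2l and Tspan4 (chr7:141475133-141475239) holds 3 GC boxes and no CCAAT box. The stretch between Deaf1 and Tmem80 (chr7:141327691-141327738) holds neither. Among 32851 mouse promoter windows cut to the same length, a GC box was found in 28.7% at 151 bases, 25.4% at 107 bases and 15.5% at 48 bases. A CCAAT box was found in 24.6%, 19.8% and 8.1% at these lengths. None of the 3 stretches held TATAAA. These are matches of letters only.

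Liver libraries held between 1289185 and 54249731 estimated counts, and muscle libraries between 1060460 and 13709519. Levels are given as normalised CPM, counts per 1000000 of the library. With 3 counts of the total as the limit that 0 counts allow, that limit lay at 0.0553 to 2.33 CPM in livers and 0.219 to 2.83 CPM in muscles, for counting error only. The spread between libraries of a group was 19.1% (common biological coefficient of variation) in liver and 51.8% in muscle. Hepatocyte markers summed to 99050 to 147900 CPM in livers and to at most 1876 CPM in muscles, and skeletal muscle markers to 60520 to 133700 CPM in muscles and at most 110.7 CPM in livers. Markers of pancreatic acinar cells summed to 0.830 to 21870 CPM in Ins2+/- muscles on diet B, with a median of 215.8 CPM. In Ins2+/+ muscles on diet B they summed to 0.693 to 934 CPM, with a median of 1.56 CPM. For genotype on diet B in muscle, 8 of 8 acinar markers had estimates above 0 (median log2 ratio 4.28), with 0 called. On diet A in muscle 8 of 8 did (0.96). In liver 7 of 7 tested did on diet A (2.25) and on diet B (4.49), with 0 called. Islet markers had estimates above 0 for 7 of 7 tested in liver (3.13 on diet A, 5.37 on diet B). In muscle 8 of 8 did (2.57 and 2.42), again with 0 called. Transcripts of pancreatic islet hormones (Iapp, Gcg, Sst and Ppy together) reached 5 CPM or more in 6 livers and 9 muscles. Those were 4 of 10 Ins2+/- and 2 of 9 Ins2+/+ livers, and 5 of 10 Ins2+/- and 4 of 10 Ins2+/+ muscles. Ins2 itself is an islet gene. Per library total, its range was 0.239 to 2074 CPM over Ins2+/- livers, against 0.199 to 76.4 CPM over Ins2+/+ livers, and its highest values stood in these same libraries. Over muscles its range was 1.06 to 12944 CPM in Ins2+/-, against 0.465 to 2202 CPM in Ins2+/+. Its genotype estimate in liver was a log2 ratio of 3.96 ± 1.45 (SE, edgeR, adjusted p = 0.412), so Ins2 in these tissues does not check the genotype labels. Ins1 had 3 counts in 1 Ins2+/- muscle on diet A, 11 counts in 1 Ins2+/- muscle on diet B and 0 in all other libraries. Mitochondrial transcripts made 49.7% of the counts of the muscle Ins2+/- B 2 and at most 26.8% in every other library. The labels do not state that each library is a separate mouse, so the p-values below measure the spread between these samples. The livers Ins2+/- B 2 and B 3 were the deepest libraries, at 54249731 and 48823009 counts. They were also the most alike of all pairs within a group. Their chi-square was 1.13 per degree of freedom at 1000000 counts, against 2.28 for the next pair. Liver results on diet B count them as 2 libraries, and whether they come from 1 sample was not tested.

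Most of the members were expressed in both tissues. A count was seen for 42 members in at least 1 liver and for 43 in at least 1 muscle, while H19 and the trophoblast transcription factor Ascl2 were listed at 0 in all 39 libraries. H19 is the only member that is not protein-coding. Among the deposited counts, 53 of 3302 genes of its class (lincRNA), or 1.61%, had any count, against 82.7% of protein-coding genes, so its 0 is no measure of the H19 level. The filter on low counts left 34 members for testing in liver, 33 in muscle and 31 in both. It removed 9 members in both tissues, which were Cend1, Pidd1, Brsk2, Syt8, H19, Th, Ascl2, Tspan32 and Phlda2. Per kilobase of annotated coding transcript, Ctsd, the gene of the lysosomal protease cathepsin D, had 152 ± 13.6 CPM per kb in liver and 256 ± 52.6 CPM per kb in muscle (SD over 19 and 20 libraries). Cd81, a tetraspanin of the cell surface, had 370 ± 45.1 CPM per kb in liver and 104 ± 12.2 CPM per kb in muscle. The order depended on the length used. With the length of all exons in place of the median transcript, liver had 131 CPM per kb of Ctsd and 75.4 of Cd81. These were the 2 highest members there by that length. With the median transcript, which was 586 bases for Cd81, the 3 highest were Cd81, the mitochondrial carrier gene Slc25a22 and Ctsd. In muscle, Ctsd and Nap1l4, a histone chaperone gene, were the 2 highest by either length. Library to library, members varied by a coefficient of variation of 8.92% (Ctsd) to 69.3% (Mrpl23) in liver, with a median of 17.1%. In muscle they varied by 11.8% (Cd81) to 144% (Eps8l2), with a median of 33.3%.

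No neighbour of Ins2 passed the test between genotypes in liver. Averaged over diets, 0 of the 34 members tested were called between Ins2+/- and Ins2+/+ livers (edgeR quasi-likelihood test, Benjamini-Hochberg adjusted p below 0.05 over 11777 genes), and 1 gene of all tested was called, which is 0.00849%. DESeq2 and limma-voom also called 0 members. At an unadjusted p below 0.05 there were 7 of 34 members, 6 with a higher and 1 with a lower estimate, where the background was 9.65% of genes. Estimates lay above 0 for 26 of 34 members, with a median log2 ratio of 0.09, where 49.7% of all genes lay above 0 with a median of -0.0015. Over both diets the groups overlapped for all 34 members, and did not for 0.0255% of genes. Of the other protein-coding genes within 10 Mb of Ins2, 27 of 57 tested lay above 0, with a median of -0.0097. Closer by, within 1 Mb and with Ins2 itself, 11 of 21 protein-coding genes outside the list had any count, as did 3 of 35 genes of other classes, and the lowest p in liver after that of Ins2 itself was that of Tnfrsf23, a decoy receptor gene, with a log2 ratio of 0.50 ± 0.36 (adjusted p = 0.697). Within 500 kb of Ins2, 3 of 6 members tested lay above 0, and farther away 23 of 28 did. Estimates above 0 were found for 17 of 22 proximal and 9 of 12 distal members.

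**Figure D1:**
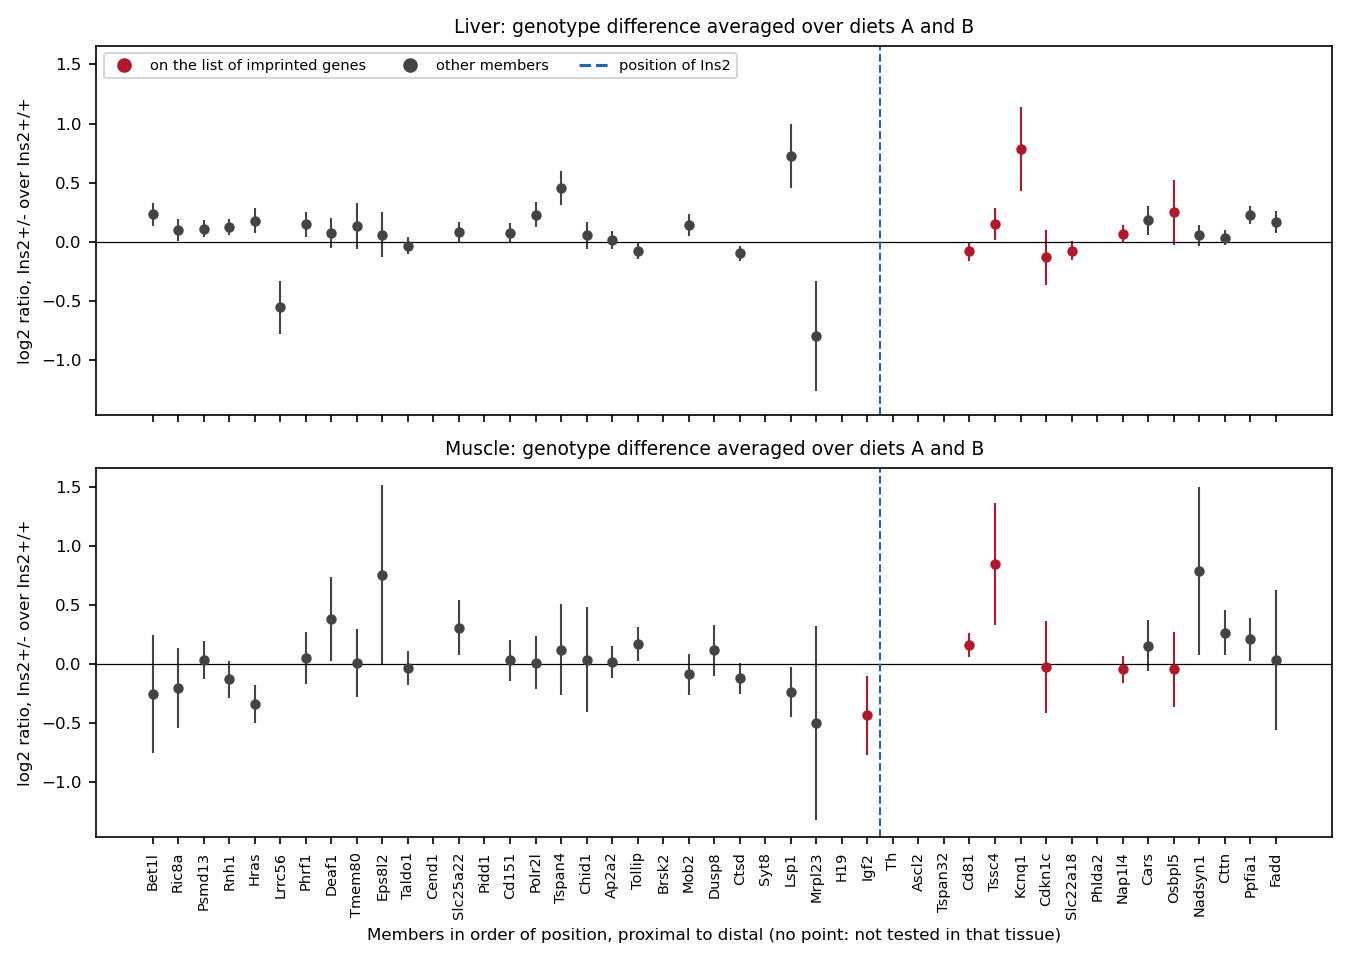
Log2 ratio of Ins2+/- over Ins2+/+ for each tested member, averaged over diets, in liver (top) and muscle (bottom); bars are ± 1 SE, and members stand in order of position with Ins2 at the dashed line and imprinted members in red. Liver estimates lie between -0.80 (Mrpl23) and 0.79 (Kcnq1), muscle bars are wider, and no member passed the test in either tissue.

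Tspan4, a tetraspanin gene, had the lowest p of the members in liver. Its level was 19.6 to 44.2 CPM with a median of 28.8 CPM in 10 Ins2+/- livers, against 14.2 to 36.6 CPM with a median of 22.6 CPM in 9 Ins2+/+ livers. The groups overlapped, and 9 of 10 Ins2+/- livers lay above the Ins2+/+ mean of their diet. Its log2 ratio was 0.45 ± 0.14 (SE, adjusted p = 0.341). On diet B, the 5 Ins2+/- livers had 28.0, 28.7, 28.9, 33.1 and 19.6 CPM, against 16.5, 14.2, 25.6 and 18.97 CPM in the 4 Ins2+/+ livers. All 5 lay above the Ins2+/+ mean, and the log2 ratio was 0.56 ± 0.20 (adjusted p = 1). On diet A it was 0.35 ± 0.20, or 0.55 without the liver Ins2+/+ A 1, the highest of its group at 36.6 CPM. The highest Ins2+/- liver on that diet was Ins2+/- A 1 at 44.2 CPM, a liver with islet transcripts. The value without that liver is not given here. The last exons of Tspan4 overlap those of Chid1 on the opposite strand by 292 bases of transcript, and the library kit named in the labels does not mark strand. Chid1 had a log2 ratio of 0.05 ± 0.11.

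Polr2l, which shares its start region with Tspan4, differed most on diet A. The 5 Ins2+/- livers had 19.4, 24.7, 17.2, 15.7 and 17.6 CPM, against 12.3, 15.0, 11.8, 13.9 and 13.2 CPM in the 5 Ins2+/+ livers. The groups did not overlap. On diet B, Ins2+/- livers had 17.7, 13.2, 14.0, 13.5 and 9.82 CPM, against 11.8, 15.9, 15.3 and 13.4 CPM in Ins2+/+ livers, and the groups overlapped. The log2 ratio was 0.50 ± 0.16 on diet A (adjusted p = 0.285) and -0.04 ± 0.15 on diet B (adjusted p = 1). The difference between diets had a log2 value of -0.54 ± 0.22 (adjusted p = 0.981). Polr2l took 46.2 to 76.0% of the summed counts of Polr2l and Usp50 in livers. With the counts of both summed, the diet A estimate was 0.31 (adjusted p = 0.502), and without the libraries with islet transcripts it was 0.28 (adjusted p = 0.681). On diet A the livers with islet transcripts were Ins2+/- A 1, Ins2+/- A 2 and Ins2+/+ A 1. Among the 34 members on diet A, 2 had groups that did not overlap, against 1.56% of genes, and 0 were called, against 0.00849% of genes. An unadjusted p below 0.05 was found for 5, against 10.1% of genes, and estimates lay above 0 for 24, against 48.8% of genes.

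Lsp1, which encodes a protein of leucocytes that binds actin, was the second of these members. On diet A the 5 Ins2+/- livers had 5.04, 6.07, 3.03, 3.61 and 3.68 CPM, against 1.65, 2.20, 1.02, 1.55 and 1.28 CPM in the 5 Ins2+/+ livers. On diet B, Ins2+/- livers had 3.13, 2.46, 2.38, 2.91 and 8.10 CPM, against 2.95, 2.51, 5.54 and 2.63 CPM in Ins2+/+ livers. The groups were apart on diet A and overlapped on diet B. These levels rest on 3 to 135 counts per library. The log2 ratio was 1.43 ± 0.40 on diet A (adjusted p = 0.24) and 0.02 ± 0.37 on diet B (adjusted p = 1), with a difference between diets of -1.41 ± 0.54 (adjusted p = 0.981). Averaged over diets it was 0.73 ± 0.27 (adjusted p = 0.416). The diet B value was -0.37 without the liver Ins2+/- B 5 and 0.39 without the liver Ins2+/+ B 4. Over the whole marker list, leucocyte markers on diet A summed to 51.1 to 83.1 CPM in Ins2+/- livers and 44.0 to 60.5 CPM in Ins2+/+ livers. Markers of Kupffer cells and other macrophages summed to 529 to 856 CPM in Ins2+/- and 423 to 524 CPM in Ins2+/+ livers on that diet. All 9 of 9 macrophage markers (median log2 ratio 0.41) and 5 of 5 tested leucocyte markers (0.43) had estimates above 0 there, with 0 called. On diet B, where Lsp1 did not differ, 9 of 9 macrophage markers (0.20) and 2 of 5 leucocyte markers (-0.01) did, with 0 called. No marker of either list was at 0 in all livers of a group. The part of these cell types in the Lsp1 values was not tested. In bulk tissue, a change in the number of cells of a type and a change in RNA per cell cannot be told apart.

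Ppfia1 encodes a liprin, a scaffold protein of cell adhesions, and lies 1733.4 kb distal of Ins2. Over both diets it had 22.8 to 33.0 CPM with a median of 27.4 CPM in Ins2+/- livers, against 21.3 to 26.6 CPM with a median of 23.6 CPM in Ins2+/+ livers. Its log2 ratio was 0.23 ± 0.08 (adjusted p = 0.379). On diet B the 5 Ins2+/- livers had 30.6, 26.7, 27.6, 31.2 and 27.2 CPM, against 23.6, 21.4, 22.7 and 26.6 CPM in the 4 Ins2+/+ livers. These groups were apart by a narrow margin, and the log2 ratio was 0.28 ± 0.11 (adjusted p = 1).

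On diet B, 4 of 34 members had groups that did not overlap, against 2.16% of genes, and 0 were called, against 0% of genes. An unadjusted p below 0.05 was found for 4, against 4.25% of genes, and estimates lay above 0 for 17, against 50.3% of genes. Those without overlap were Ppfia1, Mob2 and Kcnq1, which stood higher in Ins2+/- livers, and Ctsd, which stood lower. Kcnq1 encodes a potassium channel and is imprinted in early development. On diet B it had 1.94, 1.86, 1.71, 3.33 and 1.96 CPM in the 5 Ins2+/- livers, against 1.06, 1.34, 0.599 and 0.790 CPM in the 4 Ins2+/+ livers. Behind the Ins2+/+ values stand only 3 to 8 counts per library. The log2 ratio was 1.13 ± 0.49 on diet B (adjusted p = 1), 0.45 ± 0.51 on diet A (adjusted p = 0.805) and 0.79 ± 0.35 over both diets (adjusted p = 0.481).

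Mob2 encodes an activator of NDR kinases. On diet B its levels were 17.2, 18.8, 17.5, 21.2 and 17.2 CPM in Ins2+/- livers, against 16.5, 17.1, 15.1 and 15.3 CPM in Ins2+/+ livers, with a log2 ratio of 0.20 ± 0.13 (adjusted p = 1). Ctsd had 294, 297, 289, 283 and 287 CPM in Ins2+/- livers on diet B, against 321, 311, 311 and 302 CPM in Ins2+/+ livers. The gap between the groups was small beside the level, and its log2 ratio was -0.10 ± 0.09 (adjusted p = 1).

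Lrrc56 was the member of lower estimate with the lowest p. It encodes a protein with leucine-rich repeats that takes part in the assembly of motile cilia. Its level was 2.02 to 4.61 CPM with a median of 4.09 CPM in Ins2+/- livers, against 2.13 to 9.06 CPM with a median of 5.08 CPM in Ins2+/+ livers. Each of the 10 Ins2+/- livers had less than the mean of Ins2+/+ livers on its diet, although the groups overlapped. Lrrc56 had a log2 ratio of -0.56 ± 0.23 (adjusted p = 0.452). Hras, the signalling GTPase gene on the other side of the shared start region, had a log2 ratio of 0.18 ± 0.11 in the same livers (adjusted p = 0.617).

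Bet1l, a gene of Golgi vesicle transport and the most proximal member, had 14.7 to 24.4 CPM with a median of 17.96 CPM in Ins2+/- livers, against 11.6 to 19.2 CPM with a median of 15.9 CPM in Ins2+/+ livers. The log2 ratio was 0.23 ± 0.10 (adjusted p = 0.478), and its transcripts overlap those of Ric8a on the other strand by up to 237 bases. Fadd, the adaptor of death receptors and the most distal member, had 13.2, 14.4, 14.1, 11.8 and 14.7 CPM in Ins2+/- livers on diet A, against 10.7, 10.6, 9.48, 9.58 and 12.3 CPM in Ins2+/+ livers. The groups overlapped at their edges only. Its log2 ratio was 0.34 ± 0.13 on diet A (adjusted p = 0.433) and -0.01 ± 0.13 on diet B (adjusted p = 1).

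The other members gave smaller estimates when averaged over diets. Psmd13, a proteasome subunit gene, had a log2 ratio of 0.11 ± 0.07 (adjusted p = 0.731), and Rnh1, the ribonuclease inhibitor gene, had 0.12 ± 0.07 (adjusted p = 0.58). Phrf1, Tmem80, Cd151, Tollip and Cars lay between -0.08 (Tollip) and 0.18 (Cars), and Deaf1, Eps8l2, Taldo1, Ap2a2, Cttn and Nadsyn1 between -0.03 (Taldo1) and 0.07 (Deaf1). For some of them the average joins unlike values. Eps8l2 had 0.42 ± 0.27 on diet A and -0.30 ± 0.27 on diet B, and Nadsyn1 had 0.24 ± 0.13 and -0.14 ± 0.13 on these diets. Their differences between diets were -0.72 ± 0.38 and -0.38 ± 0.18 (adjusted p = 0.981 for both).

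**Figure D2:**
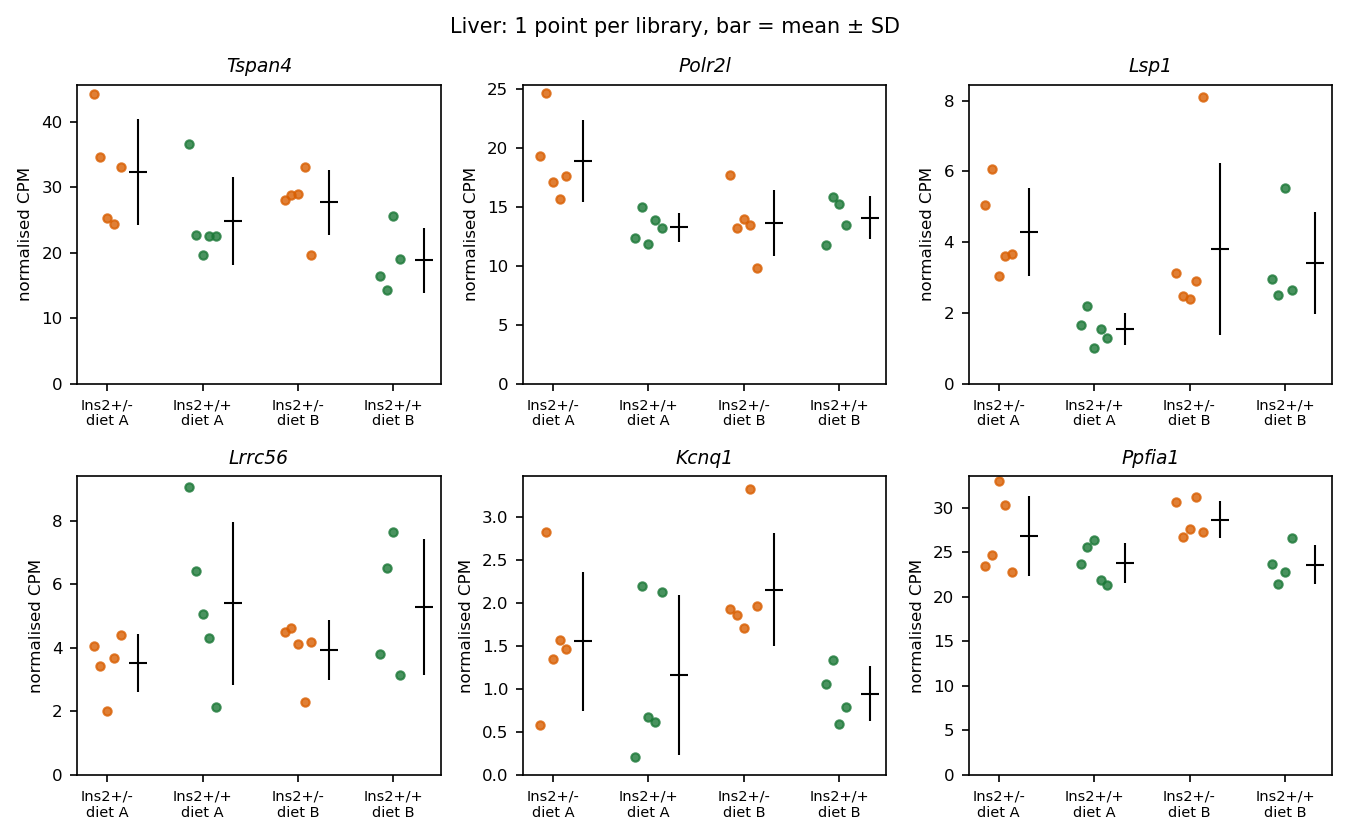
Normalised CPM in each liver library for 6 members; points are libraries, Ins2+/- in orange and Ins2+/+ in green, and bars are the mean ± SD beside each group. Polr2l and Lsp1 do not overlap on diet A, Kcnq1 and Ppfia1 do not overlap on diet B, and Tspan4 and Lrrc56 overlap on both diets.

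Mrpl23 had the lowest liver estimate of the members, with a log2 ratio of -0.80 ± 0.46 (adjusted p = 0.596). Its level was 2.91, 0.202, 9.76, 6.36 and 0 CPM in Ins2+/- livers on diet A, against 4.12, 15.6, 13.5, 6.80 and 5.53 CPM in Ins2+/+ livers. On diet B it was 7.65, 6.60, 8.12, 0 and 1.47 CPM in Ins2+/- livers, against 7.81, 6.02, 5.24 and 10.5 CPM in Ins2+/+ livers. The 5 lowest values, 0 included, all lay in Ins2+/- livers. Mrpl23 and Mrpl23-ps1 together, however, came to 21.6 ± 2.75 CPM over the 19 livers and 44.3 ± 9.64 CPM over the 20 muscles (SD). The share of that sum given to Mrpl23 ran from 0 to 75.7% in livers and from 0 to 100% in muscles. With the counts of both summed, the genotype estimate in liver was -0.02 (adjusted p = 0.975). The library labels Ins2+/- A 5 and Ins2+/- B 4 had 0 counts of Mrpl23 in liver and again in muscle. In the muscle Ins2+/- B 4, Mrpl23-ps1 had only 32 counts. Other labels were unlike between tissues, such as Ins2+/- B 1, with a Mrpl23 share of 32.8% in liver and 0.895% in muscle. Ins2+/- A 3 had 50% in liver and 100% in muscle. Since the stretch shown above is the same in both genes, reads from it cannot be told apart by their letters.

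**Figure D3:**
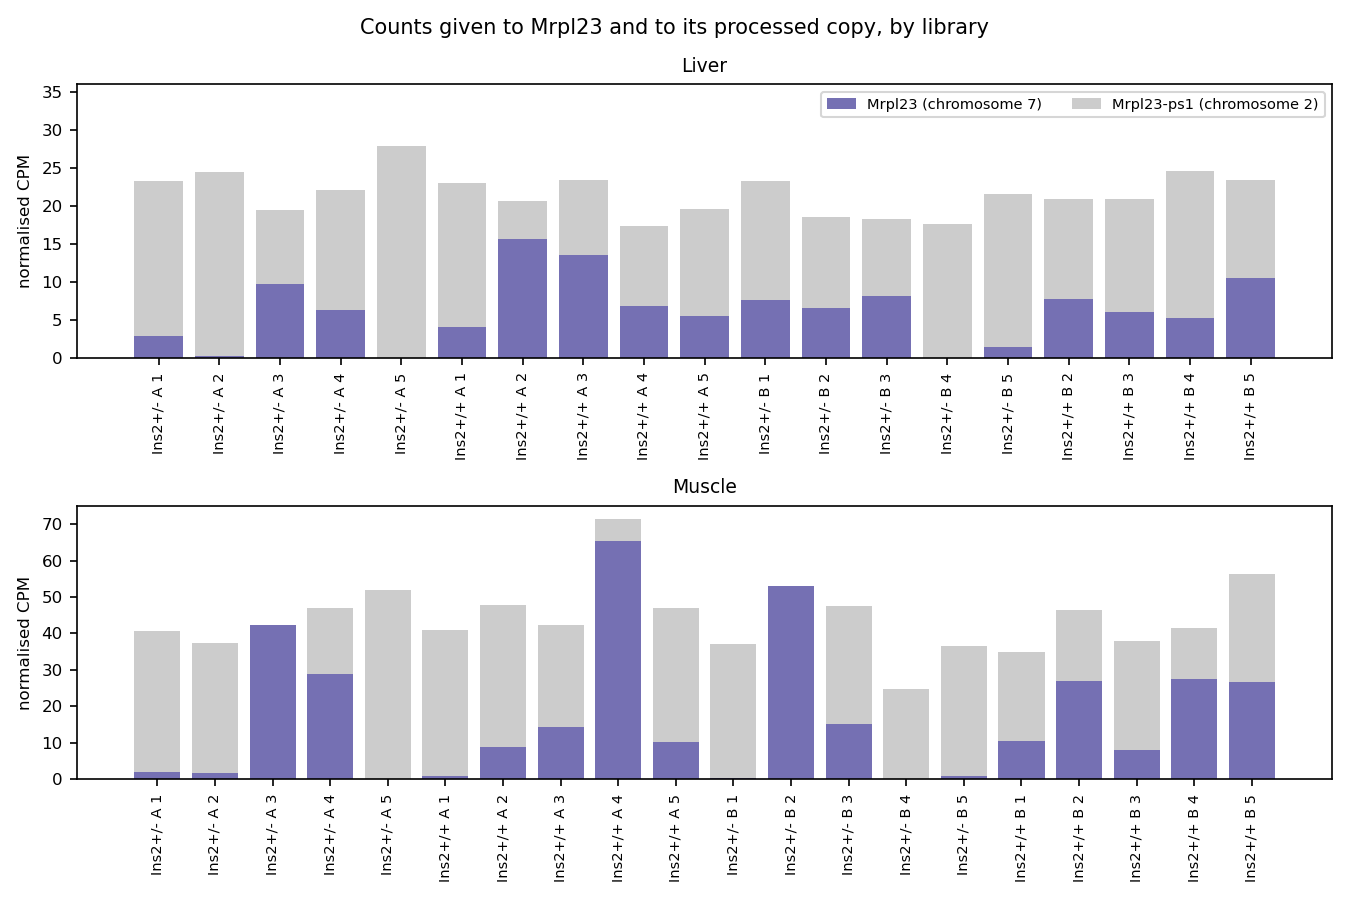
Normalised CPM of Mrpl23 (purple) stacked on by Mrpl23-ps1 (grey) in each liver (top) and muscle (bottom) library, with Ins2+/- left of Ins2+/+ on each diet. The height of the stack stays between 17.3 and 27.9 CPM in livers and between 24.7 and 71.4 CPM in muscles, while the purple share runs from 0 to 75.7% and from 0 to 100%.

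Of the 13 members on the list of imprinted genes, 7 were tested in liver and 0 were called. Counts per gene do not tell the parental copies apart, so whether the listed members were imprinted in these livers and muscles was not measured. Igf2 was near the limit of detection, with 0.194 to 1.01 CPM in Ins2+/- livers and 0 to 1.24 CPM in Ins2+/+ livers, and was not tested there. Slc22a18, an organic cation transporter gene that is expressed from the maternal copy, was the most liver-bound of the members. On diet B it had 71.2, 65.5, 60.3, 59.0 and 73.9 CPM in Ins2+/- livers, against 88.4, 78.8, 91.9 and 62.2 CPM in Ins2+/+ livers. On diet A it had 89.5, 78.7, 69.7, 80.4 and 93.4 CPM in Ins2+/- livers, against 83.1, 69.3, 81.3, 68.3 and 67.2 CPM in Ins2+/+ livers. The groups overlapped on both diets, with most Ins2+/- livers lower on diet B and higher on diet A. The log2 ratio was -0.29 ± 0.11 on diet B (adjusted p = 1) and 0.14 ± 0.11 on diet A (adjusted p = 0.696). The difference between diets was -0.43 ± 0.16 (adjusted p = 0.981).

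Cdkn1c had 2.02 to 4.32 CPM in Ins2+/- livers and 1.05 to 4.94 CPM in Ins2+/+ livers, with a log2 ratio of -0.13 ± 0.23 (adjusted p = 0.909). Cd81 had 173 to 255 CPM in Ins2+/- livers and 178 to 253 CPM in Ins2+/+ livers, with a log2 ratio of -0.08 ± 0.08 (adjusted p = 0.804). Both genes overlapped almost completely between genotypes. Nap1l4 had 28.0 to 47.1 CPM in Ins2+/- livers and 33.1 to 40.5 CPM in Ins2+/+ livers, with a log2 ratio of 0.07 ± 0.07 (adjusted p = 0.83). Tssc4, a gene of splicing complex assembly, had 6.86 to 13.8 CPM in Ins2+/- livers and 5.75 to 11.6 CPM in Ins2+/+ livers, with a log2 ratio of 0.15 ± 0.14 (adjusted p = 0.779). Osbpl5, an oxysterol-binding protein gene, had 3.03 to 14.3 CPM in Ins2+/- livers and 2.98 to 14.6 CPM in Ins2+/+ livers, with a log2 ratio of 0.25 ± 0.28 (adjusted p = 0.828). Its estimate was 0.54 without the liver Ins2+/+ A 1, which had the highest value. Of 41 imprinted genes elsewhere in the genome, 26 were tested in liver and 0 were called, with a median log2 ratio of 0.0077.

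The remaining imprinted members were at or near 0. Phlda2, a placental growth gene, had 1 count in 1 liver and 2 counts in 1 muscle. Th, the enzyme of catecholamine synthesis, had counts in 1 liver and 5 muscles, and the tetraspanin gene Tspan32 in 10 livers and 8 muscles. Neither reached the filter. Brsk2, a kinase gene of neurons and islets outside the imprinted list, had 61 of its 63 muscle counts in muscles with islet transcripts, where 4 of 9 had any, against 2 of 11 muscles without them. In livers 13 of its 23 counts lay in those with islet transcripts.

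Muscle gave no called neighbour either. Averaged over diets, 0 of 33 members were called (edgeR, background 0%), with 0 by DESeq2 and by limma-voom, and 1 of 33 had an unadjusted p below 0.05, against 3.24% of genes. Estimates lay above 0 for 20 of 33 members, against 50.5% of genes, with a median log2 ratio of 0.03. Hras was the member with the lowest p. It had 21.5 to 57.9 CPM with a median of 50.5 CPM in 10 Ins2+/- muscles, against 45.7 to 77.2 CPM with a median of 53.4 CPM in 10 Ins2+/+ muscles. For Hras the log2 ratio was -0.34 ± 0.16 (adjusted p = 0.999). On diet B the values were 57.9, 21.5, 50.2, 21.6 and 52.1 CPM in Ins2+/- muscles, against 52.9, 49.5, 61.1, 77.2 and 50.6 CPM in Ins2+/+ muscles. The 2 low values were those of Ins2+/- B 2, the library with 49.7% mitochondrial counts and 1734 CPM of islet hormones, and Ins2+/- B 4, with 7127 CPM of islet hormones. The diet B log2 ratio was -0.55 ± 0.23 (adjusted p = 0.944), and -0.20 without the libraries with islet transcripts. On diet B that fit kept only Ins2+/- B 1 and B 5 and Ins2+/+ B 1, B 4 and B 5. It also left out Ins2+/- B 3, which was not low for Hras (50.2 CPM). The same muscles were left out for Ctsd, Nap1l4 and Tssc4 below, and the part of islet transcripts in these values was not tested.

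The same 2 muscles were the lowest for Ctsd and for Nap1l4. On diet B, skeletal muscle markers summed to 60520 to 120400 CPM in Ins2+/- and 106800 to 120500 CPM in Ins2+/+ muscles. For genotype there, 0 of 8 of these markers had estimates above 0 (median log2 ratio -0.37), with 0 called. The part of a lower share of muscle transcripts in the Hras, Ctsd and Nap1l4 values was not tested. Ctsd had 559, 230, 557, 278 and 555 CPM in Ins2+/- muscles on diet B, against 532, 560, 506, 620 and 539 CPM in Ins2+/+ muscles. Its log2 ratio there was -0.39 ± 0.19 (adjusted p = 0.944), and -0.08 without the libraries with islet transcripts. Nap1l4 had 194, 90.6, 177, 109 and 183 CPM in Ins2+/- muscles on diet B, against 198, 202, 155, 172 and 168 CPM in Ins2+/+ muscles. On diet A it had 200, 167, 172, 203 and 196 CPM in Ins2+/- muscles, against 157, 182, 175, 152 and 176 CPM in Ins2+/+ muscles. Its log2 ratio was -0.29 ± 0.17 on diet B (adjusted p = 0.944) and 0.20 ± 0.17 on diet A (adjusted p = 0.999), and the diet B value was 0.01 without the libraries with islet transcripts.

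Ppfia1 was the 1 member of 33 whose muscle groups did not overlap on diet B, against 0.594% of genes, and 0 were called there, against 0%. An unadjusted p below 0.05 was found for 3, against 4.54% of genes. The 5 Ins2+/- muscles had 38.6, 46.7, 41.5, 48.6 and 40.1 CPM, against 31.5, 32.5, 29.6, 23.4 and 22.9 CPM in the 5 Ins2+/+ muscles. The highest of these, 46.7 and 48.6 CPM, were those of Ins2+/- B 2 and Ins2+/- B 4, the muscles that were low for Hras. The remaining Ins2+/- muscles also lay above all Ins2+/+ muscles. The part of islet transcripts in the Ppfia1 values was not tested. On diet A they had 27.8, 30.9, 52.8, 24.4 and 16.1 CPM, against 35.98, 38.6, 31.4, 28.0 and 42.6 CPM in Ins2+/+ muscles. Ins2+/- muscles were thus all higher on diet B and mostly lower on diet A. For Ppfia1 in muscle the log2 ratio was 0.60 ± 0.26 on diet B (adjusted p = 0.944) and -0.18 ± 0.26 on diet A (adjusted p = 0.999). The difference between diets was 0.77 ± 0.36 (adjusted p = 1).

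Tssc4 had 4.31, 8.70, 4.79, 9.25 and 6.61 CPM in Ins2+/- muscles on diet B, against 5.33, 0, 2.11, 1.25 and 2.54 CPM in Ins2+/+ muscles, with a log2 ratio of 1.54 ± 0.75 (adjusted p = 0.944). The groups overlapped through a single Ins2+/+ muscle, and without the libraries with islet transcripts the value was 0.79. Cd81 had 52.8 to 73.0 CPM in Ins2+/- muscles and 44.7 to 63.6 CPM in Ins2+/+ muscles, with a log2 ratio of 0.16 ± 0.10 (adjusted p = 0.999). Cttn, the cortactin gene of the actin cytoskeleton, had 11.3 to 54.7 CPM in Ins2+/- muscles and 17.99 to 30.3 CPM in Ins2+/+ muscles, with a log2 ratio of 0.26 ± 0.19 (adjusted p = 0.999). Both had their highest values in Ins2+/- muscles, within wide overlaps, and the highest for Cttn was Ins2+/- B 4.

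Igf2, which lies 11.8 kb from Ins2 and is expressed from the paternal copy, was measurable in muscle. It had 20.5, 16.6, 0.866, 19.1 and 19.3 CPM in Ins2+/- muscles on diet A, against 16.8, 21.1, 15.7, 30.4 and 21.9 CPM in Ins2+/+ muscles. On diet B it had 22.2, 11.4, 19.8, 4.63 and 28.9 CPM in Ins2+/- muscles, against 29.3, 7.92, 11.0, 22.2 and 49.0 CPM in Ins2+/+ muscles. The groups overlapped on both diets, and the lowest value rests on 1 count. The log2 ratio averaged over diets was -0.43 ± 0.33 (adjusted p = 0.999), and it was -0.22 without the muscle Ins2+/+ B 5. Cdkn1c had 0.866 to 15.7 CPM in Ins2+/- muscles and 1.58 to 13.9 CPM in Ins2+/+ muscles, with a log2 ratio of -0.03 ± 0.39 (adjusted p = 0.999). Osbpl5 had 0 to 25.9 CPM in Ins2+/- muscles and 10.3 to 23.8 CPM in Ins2+/+ muscles, with a log2 ratio of -0.04 ± 0.32 (adjusted p = 0.999). Neither gene differed by more than its error.

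Slc25a22, the mitochondrial glutamate carrier gene, had 18.8, 24.2, 21.7, 24.7 and 37.1 CPM in Ins2+/- muscles on diet A, against 17.4, 18.1, 10.3, 20.0 and 25.2 CPM in Ins2+/+ muscles. All 5 Ins2+/- muscles lay above the Ins2+/+ mean, with a log2 ratio of 0.51 ± 0.33 (adjusted p = 0.999). Nadsyn1, which makes the coenzyme NAD, had 3.50, 2.09, 0, 3.93 and 3.74 CPM in Ins2+/- muscles on diet A, against 0.362, 0, 0.571, 3.18 and 1.63 CPM in Ins2+/+ muscles. Its log2 ratio was 1.23 ± 1.01 (adjusted p = 0.999), at 0 to 29 counts per library. On diet A, 0 of 33 members were called, against 0% of genes, 0 had groups that did not overlap, against 0.477%, and 0 had an unadjusted p below 0.05, against 1.67% of genes. DESeq2 and limma-voom called none either.

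**Figure D4:**
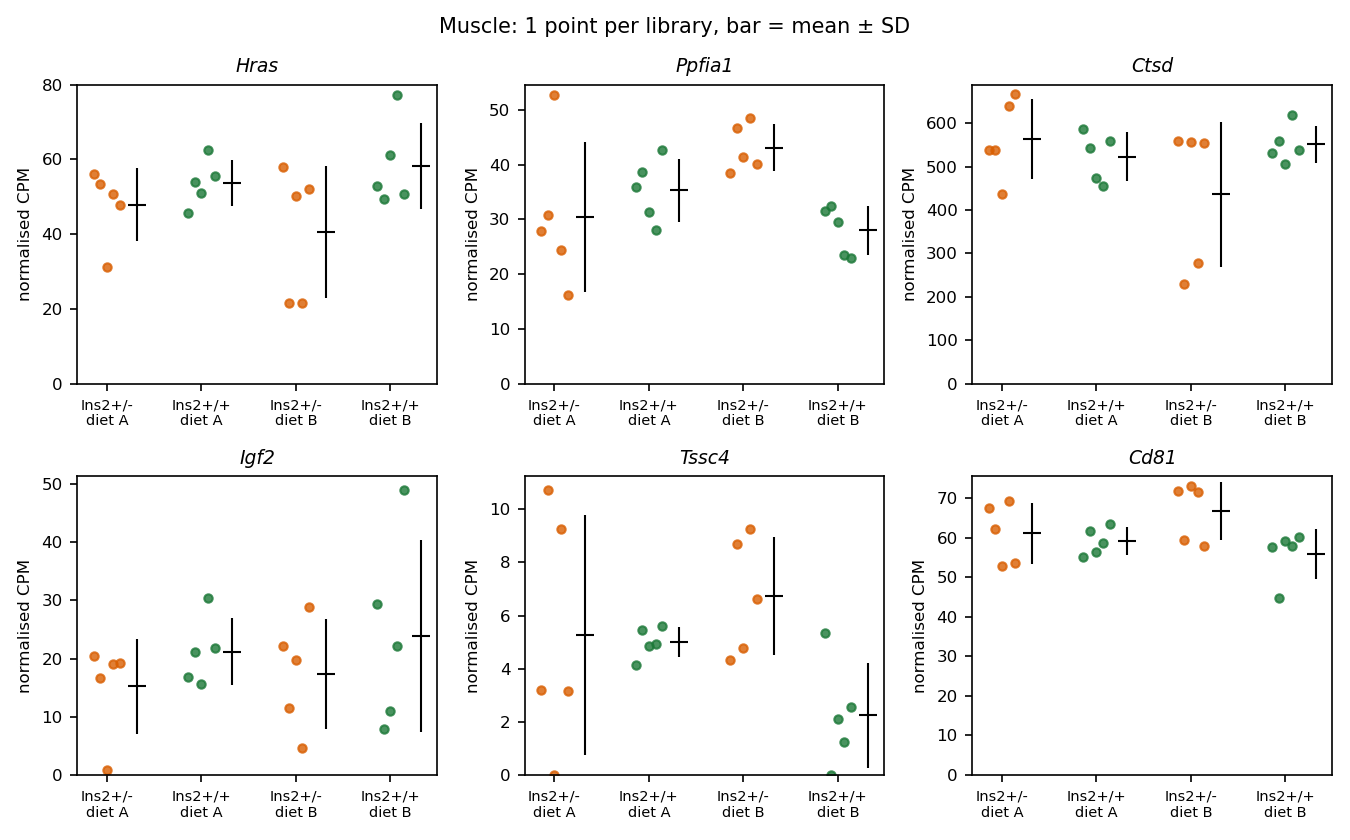
Normalised CPM in each muscle library for 6 members; points are libraries, Ins2+/- in orange and Ins2+/+ in green, and bars are the mean ± SD beside each group. Ppfia1 is apart on diet B only, and for Hras and Ctsd the 2 low points of Ins2+/- on diet B are the same 2 libraries.

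Whether a genotype difference itself depended on diet or tissue was tested directly, and no member passed. The genotype by diet interaction called 0 of 34 members in liver, against 0% of genes, with 3 members at an unadjusted p below 0.05, against 4.80% of genes. It called 0 of 33 in muscle, against 0%, with 2 members at an unadjusted p below 0.05, against 3.24%. The genotype by tissue test called 0 of 36 members, against 0% of 13714 genes, with 2 members at an unadjusted p below 0.05, against 4.93%. Those were Lsp1, with a liver minus muscle difference of 0.95 ± 0.36 (adjusted p = 0.889), and Hras, with 0.48 ± 0.22 (adjusted p = 0.996). DESeq2 and limma-voom called 0 members in these tests.

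Diet moved no neighbour past the threshold in the main fit, but Slc25a22 in liver came close. Diet B livers had 118.8 to 192 CPM in Ins2+/- and 147 to 180 CPM in Ins2+/+ mice, and diet A livers had 175 to 249 CPM in Ins2+/- and 150 to 203 CPM in Ins2+/+ mice. All 9 diet B livers lay below the diet A mean of their genotype. The log2 ratio of diet B over diet A was -0.34 ± 0.09 (adjusted p = 0.0766). DESeq2 gave -0.34 (adjusted p = 0.0128) and limma-voom -0.31 (adjusted p = 0.0266), and without the liver Ins2+/+ A 2 edgeR gave -0.37 (adjusted p = 0.0379). By edgeR 0 of 34 members were called for diet in liver, against 0.238% of genes. An unadjusted p below 0.05 was found for 6, all lower on diet B, against 12.8% of genes in either direction. The other 5 were Ric8a, Rnh1, Taldo1, Tspan4 and Chid1, with log2 ratios between -0.31 and -0.15. Taldo1, a pentose phosphate pathway enzyme gene, had the next lowest p (log2 ratio -0.21 ± 0.07, adjusted p = 0.189). In muscle 0 of 33 members were called for diet, against 0.00836% of genes, none by DESeq2 or limma-voom and none at an unadjusted p below 0.05, against 3.80% of genes.

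Most neighbours differed between the tissues. Between liver and muscle, 32 of the 36 members tested in both tissues together were called, against 77.8% of genes. Of these 16 were higher in liver, against 38.0% of genes, and 16 were lower, against 39.8%. The share is near that of all genes. The split moved with the tool and the scaling, to 20 higher and 13 lower with DESeq2, 19 and 15 with limma-voom, 18 and 13 with median-ratio scaling, and 15 and 16 with upper-quartile scaling. For 7 of 36 members the tissues did not overlap in any library, against 26.7% of genes. The transporter gene Slc22a18 had 59.0 to 93.4 CPM in 19 livers, against 0 to 2.46 CPM in 20 muscles, with a log2 ratio of 7.34 ± 0.24 (adjusted p = 3.34e-26). Cd81 had 173 to 255 CPM in livers, against 44.7 to 73.0 CPM in muscles, with a log2 ratio of 1.84 ± 0.07 (adjusted p = 3.42e-25). Slc25a22 had 118.8 to 249 CPM in livers, against 9.90 to 37.1 CPM in muscles, with a log2 ratio of 3.08 ± 0.13 (adjusted p = 1.62e-22). These libraries stood fully apart by tissue.

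Nadsyn1 had 10.2 to 19.7 CPM in livers, against 0 to 6.94 CPM in muscles, with a log2 ratio of 3.06 ± 0.26 (adjusted p = 2.37e-13). Eps8l2, an actin-regulating gene of epithelia, had 15.5 to 55.8 CPM in livers, against 0 to 22.4 CPM in muscles, with a log2 ratio of 3.54 ± 0.33 (adjusted p = 3.09e-12). Its highest muscle was Ins2+/- B 4, the muscle with most islet hormone transcripts.

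On the side of muscle stood Dusp8, a phosphatase gene of the MAP kinases, with 0 to 1.57 CPM in livers, against 16.0 to 57.8 CPM in muscles. Its log2 ratio was -6.42 ± 0.27 (adjusted p = 5.83e-23). Igf2 had 0 to 1.24 CPM in livers, against 0.866 to 49.0 CPM in muscles, with a log2 ratio of -4.80 ± 0.29 (adjusted p = 1.19e-17). Only 1 muscle reached down to the liver range. Lsp1 had 1.02 to 8.10 CPM in livers, against 10.5 to 50.0 CPM in muscles, with a log2 ratio of -3.40 ± 0.19 (adjusted p = 3.11e-19). The leucocyte markers stood the other way, at 44.0 to 83.1 CPM in livers and 8.24 to 46.1 CPM in muscles. Which cells gave the Lsp1 counts in either tissue was not tested. Nap1l4 had 28.0 to 47.1 CPM in livers, against 90.6 to 203 CPM in muscles, with a log2 ratio of -2.18 ± 0.08 (adjusted p = 1.43e-24).

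The imprinted members fell on both sides. Of 8 tested, 3 were higher in liver (Slc22a18, Cd81 and Tssc4) and 4 were lower (Igf2, Nap1l4, Cdkn1c and Osbpl5), while Kcnq1 was not called (log2 ratio 0.30 ± 0.46, adjusted p = 0.56). Cdkn1c had 1.05 to 4.94 CPM in livers, against 0.866 to 15.7 CPM in muscles, with a log2 ratio of -1.40 ± 0.24 (adjusted p = 2.86e-06). Of 33 imprinted genes elsewhere that were tested, 6 were higher and 23 lower in liver. The other members not called were Ric8a, Deaf1 and Ap2a2. Among the members that start close together, Hras was lower in liver (log2 ratio -1.05 ± 0.11, adjusted p = 3.93e-11) and Lrrc56 was higher (1.37 ± 0.37, adjusted p = 0.00104). Tspan4 was higher in liver (1.20 ± 0.20, adjusted p = 9.7e-07) and Polr2l lower (-0.32 ± 0.13, adjusted p = 0.023). Tmem80 was lower in liver (-0.46 ± 0.17, adjusted p = 0.0155), while Deaf1 had 0.23 ± 0.18 (adjusted p = 0.236). Bet1l was higher in liver (1.49 ± 0.23, adjusted p = 2.94e-07), and Ric8a had 0.36 ± 0.18 (adjusted p = 0.064). The Polr2l call did not hold with DESeq2 (-0.16, adjusted p = 0.285) or with the median-ratio scaling (-0.16, adjusted p = 0.247), which moved the median of all genes to 0.12, against -0.04 with the main scaling. With the counts of Usp50 added, the Polr2l value was -0.58 (adjusted p = 4.88e-05).

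**Figure D5:**
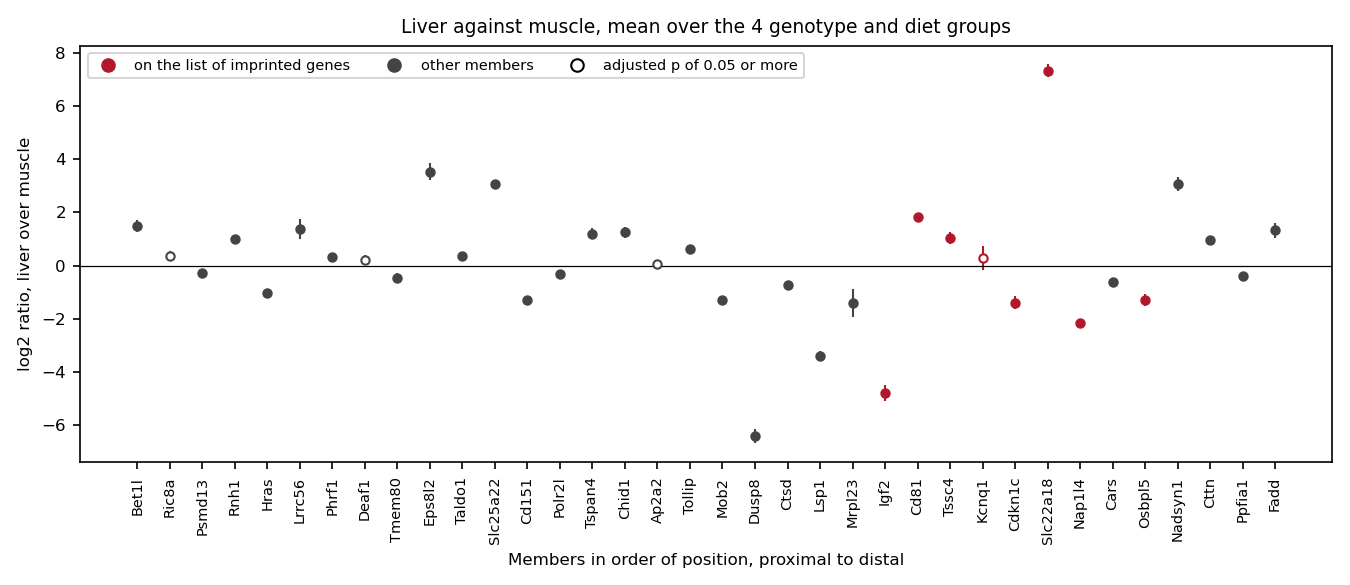
Log2 ratio of liver over muscle for the 36 members tested in both tissues together, in order of position; bars are ± 1 SE, imprinted members are red and open circles did not pass the test. Values run from -6.42 (Dusp8) to 7.34 (Slc22a18), and members next to each other lie on both sides of 0.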

How the data were processed

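Per the labels' protocols, libraries were made from 400 ng of total RNA with the TruSeq RNA kit version 2, which keeps no strand. The deposited tables hold estimated counts per gene, made by the authors with kallisto 0.42.3 on GRCm38, per the submitters' processing notes, which also name DESeq2 without a version. Of 46517 identifiers, 46005 (98.9%) matched the GENCODE annotation. Expected counts were rounded and tested in edgeR 4.0.16 under R 4.3.3 (TMM, filter on low counts by group, quasi-likelihood F-test, means of 4 groups per tissue, 8 over both), with Benjamini-Hochberg adjustment over all genes tested. The common threshold was 0.05. An SE is the log2 ratio over the root of F. CPM are normalised with TMM factors over all 39 libraries. Library totals, and so precision, are given with the results. Near-identical sequences were found with BLAST 2.17.0 among transcripts. DESeq2 1.42.0, limma 3.58.1, other scalings, other filters, a replicate block, left-out libraries and 5 and 20 Mb windows were tried. The fits were run on simulated data with changes larger than most genotype estimates here, which cannot show whether differences of this size would be called. The members and lists were chosen with earlier results of these data known. Genes named with values are those of lowest p per tissue and diet, the imprinted members and those called. Others were chosen after their values were seen. These are Mrpl23, Mob2, Brsk2, Slc25a22 in liver, Ctsd in liver on diet B and Taldo1 for diet. For genotype in liver they also include Hras, Chid1, Psmd13, Rnh1, Eps8l2, Nadsyn1 and the ends of the ranges given. Between tissues they are the members that start close together and those that set tissues apart.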

Additional observations from a re-analysis of the deposited data

Results flagged for a closer look

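Among 124 groups of 4 or 5 libraries looked at, 12 held a library far from the others of its group, where chance flags about 1 group in 20. In liver, Kcnq1 was 3.33 CPM in Ins2+/- B 4 and at most 1.96 CPM in the others of its group, and Lrrc56 was 2.29 CPM in the same library and at least 4.11 CPM in the others. Lsp1 was 8.10 CPM in Ins2+/- B 5 (others at most 3.13 CPM) and 5.54 CPM in Ins2+/+ B 4 (others at most 2.95 CPM). Nap1l4 was 28.0 CPM in Ins2+/- B 5 (others at least 35.0 CPM). Tspan4 was 36.6 CPM in Ins2+/+ A 1 (others at most 22.6 CPM), and Tssc4 was 5.75 CPM in Ins2+/+ A 3 (others at least 10.5 CPM). In muscle, Mrpl23 was 53.1 CPM in Ins2+/- B 2 (others at most 15.3 CPM) and 65.3 CPM in Ins2+/+ A 4 (others at most 14.3 CPM), both in libraries where it took most of the counts shared with Mrpl23-ps1. Igf2 was 0.866 CPM in Ins2+/- A 3, the shallowest library (others at least 16.6 CPM). Cd81 was 44.7 CPM and Osbpl5 10.3 CPM in Ins2+/+ B 2 (others at least 57.6 and 20.1 CPM).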

How the results depend on the processing

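The count of members called stayed at 0 for every genotype, interaction and genotype by tissue comparison and for diet in muscle, under DESeq2, limma-voom, both other scalings, both other filters, the replicate block, the left-out libraries and, where tried, a fit of only the groups compared. For diet in liver, DESeq2 and limma-voom gave 1 each, and leaving out each library gave 0 to 1. Liver against muscle gave 31 to 33 members on leaving out each library, against 32 in the main fit, 31 with the replicate block, 33 with DESeq2 and 34 with limma-voom. Of the other genes near Ins2, 0 were called for genotype with a window of 5, 10 or 20 Mb. The labels do not say that a replicate number marks a shared mouse or batch. Deviations of same-numbered libraries correlated between groups with a median r of 0.022 in liver (10 of 27 pairs over 0.1, range -0.267 to 0.444) and 0.0725 in muscle (11 of 30 pairs, -0.0831 to 0.353), and between tissues with 0.0189 (1 of 19 pairs). For libraries of other numbers the median r was -0.0124 in liver, -0.0138 in muscle and -0.00364 between tissues. These values do not settle whether a number marks a shared origin. As the labels state none, the main fit did not pair libraries, and the replicate block changed no genotype call among the members. The Ppfia1 tissue call was lost without the libraries with islet transcripts (-0.21, adjusted p = 0.0706), and that of Polr2l on leaving out any of 5 libraries (-0.28 to -0.26), which were the liver Ins2+/- B 5 and the muscles Ins2+/- A 1, Ins2+/- B 1, Ins2+/+ A 1 and Ins2+/+ B 1. Kcnq1 was called by limma-voom (0.92, adjusted p = 0.0326). The livers Ins2+/- B 2 and B 3 were the most alike of all such pairs, with a chi-square of 1.13 per degree of freedom at 1000000 counts, against 2.28 for the next, and taking them as 1 library changed no genotype count. Summing near-identical copies was chosen after seeing the data. Members under about 3 CPM rest on few counts, and muscle, with its spread of 51.8%, limits small differences most. The causes of these changes were not tested.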
